A study of Arabidopsis thaliana with 18 samples.

Results

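Some rows of the count tables hold the reads of more than 1 gene. These joined rows carry the transcript names of 2 or more loci in 1 identifier, and they were taken as every row whose identifier, split into its transcripts and stripped of version numbers, names at least 2 different loci. There were 1897 joined rows among 31362, and the remaining 29465 rows named a single locus. The joined rows covered 3913 of the 33378 loci named in the tables, and none of these loci had a row of its own.

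Messenger RNA was sequenced from whole Arabidopsis thaliana plants of the Col-0 accession, grown in vitro at 22 °C in days of 18 h light and 6 h darkness and taken 11 days after germination. The 18 libraries form 7 groups: wild-type Col-0 (n = 3), 35S-RTL2 (n = 3), rtl2-1 (n = 3), 35S-RTL1-Myc (n = 2), dcl2dcl3dcl4 (n = 3), dcl2dcl3dcl4 35S-RTL2 (n = 3) and dcl2dcl3dcl4 35S-truncatedDCL1 (n = 1). The 35S groups carry a gene driven by the cauliflower mosaic virus 35S promoter, which is active in most plant tissues, and the 35S-RTL1-Myc gene also carries a Myc tag. rtl2-1 is a mutant of RTL2, and the 3 groups named dcl2dcl3dcl4 all carry mutations in DCL2, DCL3 and DCL4. The labels do not say whether the replicates came from separate cultures or how many lines were used, so the p-values reflect variation among these libraries, which could be technical only.

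Overlapping genes are common in compact plant genomes. When a pair lies on opposite strands, both transcripts can pair into double-stranded RNA over the shared stretch, and small RNAs from such pairs are known as natural antisense siRNAs. Dicer-like (DCL) proteins cut double-stranded RNA: DCL1 makes most microRNAs from hairpin precursors, and DCL2, DCL3 and DCL4 make most siRNAs. RTL1 and RTL2 belong to the RNase III family, as Dicer does, and RTL1 is known to cleave double-stranded RNA when overexpressed. A count in a joined row cannot be divided among its loci, and the strand setting of the counting is not given in the sources used here, so every value below belongs to the row and not to a single gene.

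Of the joined rows, 30 held the precursor of a microRNA. RefSeq annotates 46 mature microRNAs with 41 different seeds for the 31 precursor loci in these rows. The sequences below, from RefSeq on TAIR10.1, belong to the DCL1 row and to some of the rows called in the results, with the seed (bases 2 to 8 from the 5′ end) in capitals.
miR850: uAAGAUCCggacuacaacaaag
miR863-3p: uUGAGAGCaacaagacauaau
miR860: uCAAUAGAuuggacuauguau
miR398c-3p: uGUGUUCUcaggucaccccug
miR408-3p: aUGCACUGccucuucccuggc
miR826a: uAGUCCGGuuuuggauacgug
miR838: uUUUCUUCuacuucuugcaca
miR156f-5p: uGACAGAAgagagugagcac
These 8 do not share a seed with one another. Within the joined rows, miR398b-3p has the same whole sequence as miR398c-3p, and miR156d-5p has the same whole sequence as miR156f-5p. miR156g shares the seed of miR156f-5p but not its whole sequence. miR398 and miR408 are known for targeting transcripts of copper proteins, and miR156 for targeting the SPL transcription factors. The counts are of messenger RNA libraries: they measure precursor transcripts together with the neighbouring genes, not mature microRNAs.

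Most joined rows were pairs on opposite strands. Of all joined rows, 1806 held 2 loci, 77 held 3 and 14 held 4 or more, up to 8. By the gene models of the later RefSeq release on TAIR10.1, 1277 of the 2-locus rows were tail-to-tail neighbours, with a median overlap of 81 bp. A further 177 had 1 gene nested within the other on the opposite strand (median overlap 963 bp), and 110 were head to head (median overlap 487.5 bp). Same-strand overlap was found for 114 rows, of which 67 overlapped in part and 47 were nested. In 66 rows the models did not overlap in that release, and 62 could not be placed because a locus had no entry. Protein-coding genes alone made up 1454 rows, 195 rows held a long non-coding or other RNA, 108 a pseudogene, 39 a tRNA and 14 a small nucleolar or nuclear RNA.

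Joined rows were abundant. They were kept by the filter on low counts more often than single-locus rows, 96.5% (1830 rows) against 66.2% (19513 rows), and among the rows kept their median level was 42.5 CPM (counts scaled to the size of the library) against 15.9 CPM. A row that sums several genes can start from a higher level, but its part in this difference was not tested. The 5 joined rows with most counts took 5.45% of all joined counts, and 3 of them hold a light-harvesting protein gene. RWA3 and LHB1B2 ran from 1140 to 2840 CPM over the libraries (median 1930), ATSMC2 and LHCA4 from 1060 to 2350 CPM (median 1710), and LHCB3 and ATM2 from 957 to 1890 CPM (median 1310). AT3G02468 and SAMDC, which encodes an enzyme of polyamine synthesis, followed at 1040 to 1530 CPM (median 1260). AT5G02370 and MT2B, which encodes a metallothionein, stood at 940 to 1750 CPM (median 1160).

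The libraries held 20775728 to 34874423 counts, and replicates correlated at r = 0.965 to 0.995 over the joined rows, a correlation across rows within pairs of libraries. The lowest value was for a pair with rtl2-1 replicate 2. Leaf genes were high, with RBCS1A at 4980 to 9440 CPM. Floral organ genes were also present in every library, although the labels describe whole plants at 11 days: AP3 ran from 89.3 to 147 CPM, PI from 98.3 to 187 CPM, AG from 37.8 to 49.2 CPM, SEP3 from 157 to 235 CPM and AP1 from 45.3 to 129 CPM. The root gene IRT1 ran from 6.77 to 30.0 CPM and the row of the root gene PYK10, itself a joined row, from 19.1 to 28.0 CPM. AG, SEP3 and AP1 were looked up after AP3 and PI had been seen. Their part in the results was not tested.

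The share of a library's counts that fell in joined rows differed little between groups. It was 13.63, 13.48 and 13.47% in the Col-0 libraries, 13.82 and 13.76% in the 35S-RTL1-Myc libraries, and 13.76, 13.67 and 13.63% in the dcl2dcl3dcl4 libraries. The 35S-RTL1-Myc libraries lay above all Col-0 libraries, while dcl2dcl3dcl4 and Col-0 met at 13.63%. The remaining groups spanned 13.17 to 13.48% in 35S-RTL2, 13.16 to 13.52% in rtl2-1 and 13.47 to 13.61% in dcl2dcl3dcl4 35S-RTL2, and the single truncated DCL1 library stood highest at 14.05%. That share includes the DCL1 row, at 1420 CPM in this library, which may hold reads of the truncated DCL1 gene.

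**Figure D1:**
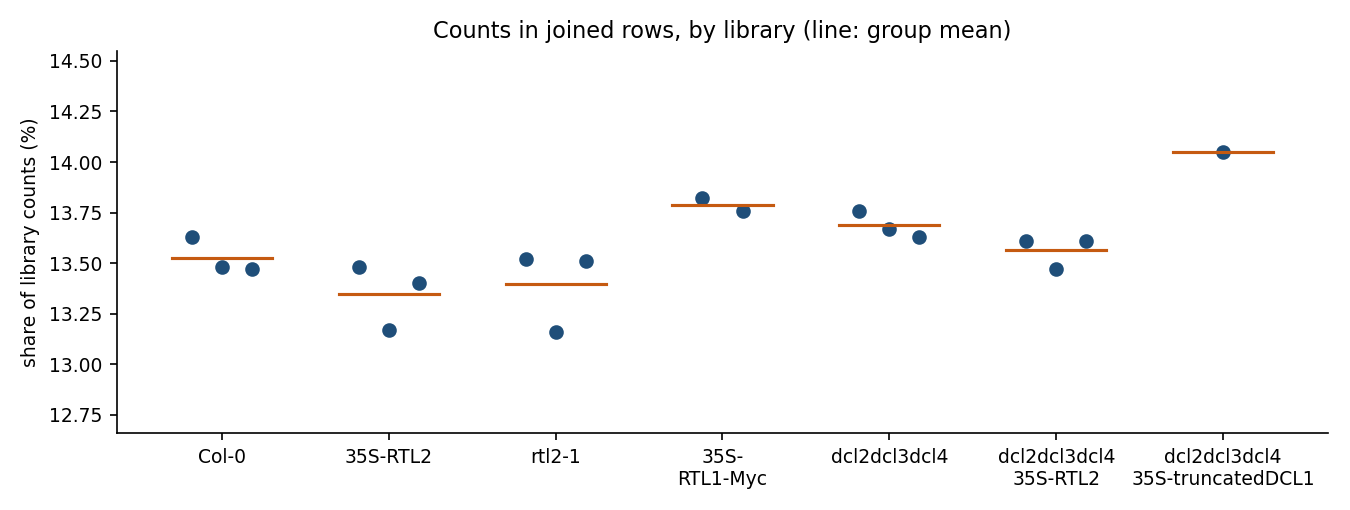
Share of each library's counts in joined rows (percent, on an axis that does not start at 0), with 1 point per library and a line at the group mean. All 18 libraries lie between 13.16 and 14.05%.

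How RTL1 overexpression alters transcript levels is the question of 35S-RTL1-Myc against Col-0. Rows with the glucosinolate gene BCAT4, the clock gene LNK2 and the precursors of miR398c and miR408 rose, and rows with the precursors of miR850 and miR863, serine and cysteine synthesis genes and the clock gene ELF3 fell. In all, 497 of 1830 joined rows passed edgeR's quasi-likelihood test at a Benjamini-Hochberg adjusted p below 0.05, 275 higher and 222 lower. That is 27.2% of joined rows, beside 29.5% of all 21343 rows tested and 29.7% of single-locus rows. The share called higher was 15.0% of joined rows beside 14.8% of all rows, and the share called lower was 12.1% beside 14.7%. Leaving out 35S-RTL1-Myc replicate 1 reduced the joined calls to 314, of which 300 were among the 497, and leaving out replicate 2 reduced them to 349. The deposited tables carry a number in their names, and with it as a term 436 joined rows were called. Within a number, 35S-RTL1-Myc has at most 1 library, so no test within it was made. The order of the joined and single-locus shares differed between settings. With the minimum fold they were 12.8% and 19.6%. With no filter they were 24.0% and 21.8%, and by DESeq2 27.9% and 20.6%. These last 2 settings also count rows that the filter removed.

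The sizes of the changes were compared at like abundance. The median size of the log2 change was 0.205 over joined rows and 0.308 over single-locus rows. Within rows of 10 to 100 CPM it was 0.189 against 0.213, and above 100 CPM it was 0.192 against 0.253. Between 1 and 10 CPM it was 0.375 against 0.452, and below 1 CPM it was 0.666 against 0.916. The share called followed the same order at 10 to 100 CPM, 26.2% against 29.4%, and above 100 CPM, 30.5% against 34.7%. Below 1 CPM it was 23.8% of 42 joined rows against 23.0%. A row that sums genes moving differently has a change between theirs, and the difference between joined and single-locus rows was not tested.

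**Figure D2:**
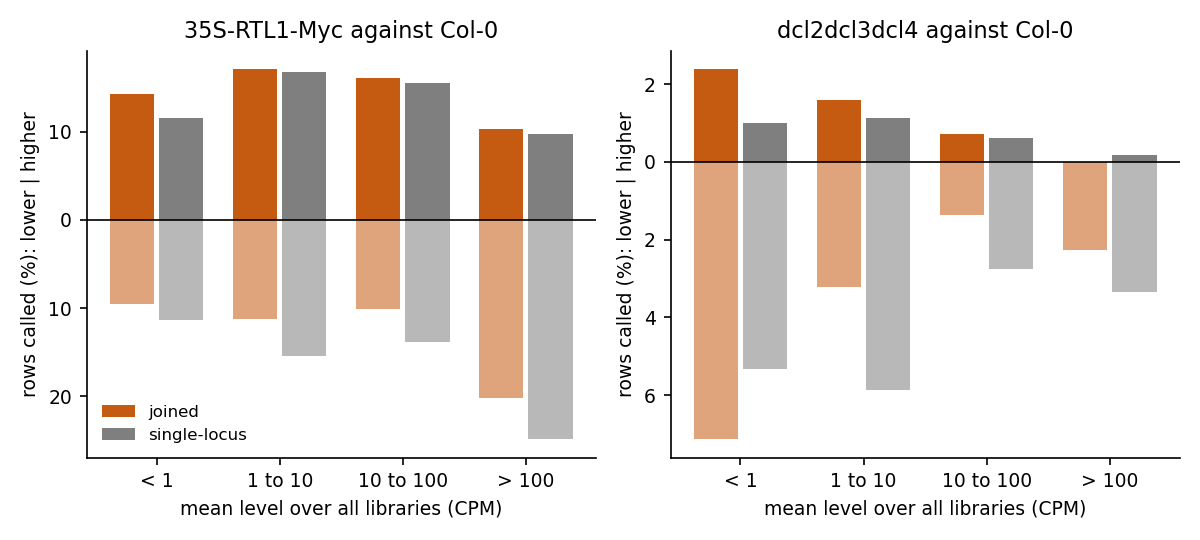
Percent of rows called higher (up) or lower (down, paler) by mean level over all libraries, for joined rows (orange) and single-locus rows (grey), in 35S-RTL1-Myc and in dcl2dcl3dcl4 against Col-0. In 35S-RTL1-Myc the share of joined rows called in either direction was 30.5% above 100 CPM, against 34.7% of single-locus rows; the vertical scales differ between panels.

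Calls were counted by the kind of overlap, beside the 29.5% of all rows called, 14.8% higher and 14.7% lower. Of 162 tested rows with a gene nested on the opposite strand, 57 (35.2%) were called in 35S-RTL1-Myc, 38 higher and 19 lower. Head-to-head rows followed with 30 of 94 (31.9%), tail-to-tail rows with 330 of 1265 (26.1%), and same-strand rows with 25 of 102 (24.5%, 9 higher and 16 lower). By type of gene, 73 of 190 rows (38.4%) with a long non-coding or other RNA were called, 49 higher and 24 lower, with a median log2 change of 0.145 against −0.004 over all rows tested. Rows of protein-coding genes alone were called in 363 of 1441 (25.2%) cases, 195 higher and 168 lower. The rows with a non-coding RNA had a median of 17.0 CPM and those of protein-coding genes alone 50.1 CPM, and no test between these kinds of row was made.

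**Figure D3:**
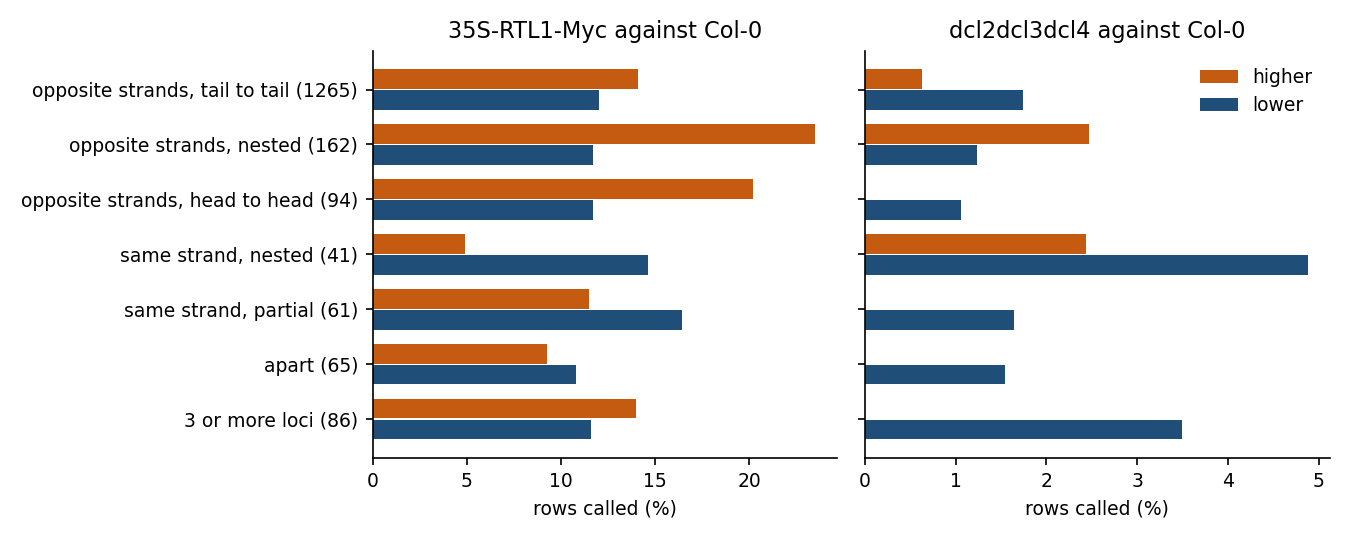
Percent of joined rows called higher (orange) or lower (blue) by the relation of their loci in TAIR10.1, with the number tested in brackets, in 35S-RTL1-Myc and in dcl2dcl3dcl4 against Col-0. In 35S-RTL1-Myc, rows with a gene nested on the opposite strand had 23.5% higher calls; rows that could not be placed are left out and the horizontal scales differ.

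Rows named for the size of their change, here and in dcl2dcl3dcl4, were required to show no overlap between the groups, as 61.4% of all rows tested did here, so their separation is no result. The largest rise was in a tail-to-tail pair of a seed-size gene and a glucosinolate gene. IKU2, a receptor kinase known for seed size, and BCAT4, which starts the chain elongation of methionine for glucosinolates, share a row that stood at 0.627, 0.829 and 2.89 CPM in Col-0 and at 39.6 and 54.9 CPM in 35S-RTL1-Myc. The row rose by 5.04 on the log2 scale (SE 0.58, edgeR adjusted p = 2.09e-05). IMD1, an isopropylmalate dehydrogenase gene of the same chain elongation and of leucine synthesis, shares a row with AT5G14210, which stood at 53.2, 46.2 and 49.4 CPM in Col-0 and at 206 and 239 CPM in 35S-RTL1-Myc. Both 35S-RTL1-Myc libraries lay above 200 CPM, with a log2 change of 2.16 (SE 0.14, edgeR adjusted p = 1.72e-07). Neither row was called in dcl2dcl3dcl4. IKU2 and BCAT4 also reached 5.32, 17.5 and 17.4 CPM in dcl2dcl3dcl4 35S-RTL2, beside 4.82, 1.91 and 2.23 CPM in dcl2dcl3dcl4, which did not pass the test.

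Both joined rows with a circadian clock gene were called, 1 higher and 1 lower. Of all rows tested, 29.5% were called, 14.8% higher and 14.7% lower. LNK2, an activator of evening clock genes, shares a tail-to-tail row with RPB5E, a gene for an RNA polymerase subunit, and this row stood at 58.4, 48.0 and 40.2 CPM in Col-0 and at 307 and 312 CPM in 35S-RTL1-Myc. It rose by 2.66 on the log2 scale (SE 0.24, edgeR adjusted p = 3.31e-06). ELF3, part of the evening complex, shares a row with ALPHA-VPE, a vacuolar protease gene, at 91.9, 98.7 and 96.9 CPM in Col-0 and 31.5 and 62.0 CPM in 35S-RTL1-Myc. The 35S-RTL1-Myc libraries differed from each other by about as much as the higher of them differed from Col-0, and the row fell by 1.03 (SE 0.20, edgeR adjusted p = 0.00124). The row of COL1, a CONSTANS-like gene, with the nested AT5G15845 rose by 2.33 (SE 0.37, edgeR adjusted p = 0.000293), from at most 6.31 CPM in Col-0 to 27.0 and 29.9 CPM. The labels do not give the time of day at harvest.

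Further rows also rose. AT4G21926 and AT4G21930, head to head, stood at 2.63, 2.22 and 0.906 CPM in Col-0 and at 25.0 and 20.0 CPM in 35S-RTL1-Myc, a log2 change of 3.54 (SE 0.37). AT3G10910 and AT3G10912 stood at 1.25, 1.13 and 1.08 CPM in Col-0 and at 10.3 and 9.05 CPM in 35S-RTL1-Myc (log2 3.06, SE 0.27). cPT4 and cPT5, a tail-to-tail pair of genes for cis-prenyltransferases, which make polyisoprenoids, stood at 1.25, 2.00 and 1.47 CPM in Col-0 and at 11.4 and 9.87 CPM in 35S-RTL1-Myc (log2 2.75, SE 0.31). All 3 had an edgeR adjusted p between 2.09e-06 and 1.89e-05. Rows with AFR, an F-box gene of far-red light signalling (2.10, SE 0.19), PP2-B13 (2.55, SE 0.53), AT1G67855 and AT1G67856 (2.44, SE 0.51), and AT5G05960 and AT5G05965 (2.10, SE 0.44) also rose. The AT1G67855 row missed the threshold without 35S-RTL1-Myc replicate 1 (log2 1.60, edgeR adjusted p = 0.0685), the library in which it was highest.

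Falls included the rows of PSAT, NIC2 and AT3G15450. PSAT, a serine synthesis gene, shares a row with SERAT3;2, a serine acetyltransferase gene of cysteine synthesis. This row stood at 103, 117 and 121 CPM in Col-0 and at 32.2 and 32.4 CPM in 35S-RTL1-Myc, and it fell by 1.82 on the log2 scale (SE 0.11, edgeR adjusted p = 1.29e-07). The row of NIC2, a nicotinamidase gene of NAD recycling, with AT5G23235 and AT5G23240 stood at 157, 174 and 196 CPM in Col-0 and at 14.9 and 70.8 CPM in 35S-RTL1-Myc, a fall of 2.03 (SE 0.41, edgeR adjusted p = 0.00194) with the 2 replicates of 35S-RTL1-Myc far apart. AT3G15450 and AT3G15460 behaved alike: the row stood at 280, 341 and 308 CPM in Col-0 and at 40.5 and 88.9 CPM in 35S-RTL1-Myc, a fall of 2.26 (SE 0.43, edgeR adjusted p = 0.00127).

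Other falls passed with less depth or less even controls. AT1G63055 and AT1G63057 held 326 counts over the Col-0 libraries (7.27, 4.60 and 1.29 CPM) and 9 over the 35S-RTL1-Myc libraries (0.217 and 0.102 CPM), a fitted log2 change of −4.75 (SE 1.14). Without 35S-RTL1-Myc replicate 2 this row missed the threshold (−4.29, edgeR adjusted p = 0.0622). AT3G21490 and DXPS1, whose Col-0 values were 14.9, 12.3 and 6.34 CPM against 2.35 and 1.36 CPM, fell by 2.59 (SE 0.64) and missed it without the same library (−2.23, edgeR adjusted p = 0.0763). The largest fitted fall was in AT5G28232 and AT5G28235, which had 86 counts over the Col-0 libraries and 1 over the 35S-RTL1-Myc libraries, too few for a fold to be read. AT4G04077 and AT4G04078 (−2.48, SE 0.32), AT2G47550 and AT2G47560 (−1.89, SE 0.20), the row of AIR3, a subtilisin-like protease gene (−1.83, SE 0.25), and the row of PGIP1, a polygalacturonase inhibitor gene (−1.57, SE 0.20), also fell.

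Of the 26 tested rows with a microRNA precursor, 9 were called in 35S-RTL1-Myc, 2 higher and 7 lower, a share of 34.6% beside 29.5% of all rows. MIR398c and NRT2.7, a nitrate transporter gene, stood at 17.5, 14.2 and 20.9 CPM in Col-0 and at 59.8 and 78.1 CPM in 35S-RTL1-Myc, and the row rose by 1.98 on the log2 scale (SE 0.21, edgeR adjusted p = 9.73e-06). The 2 loci lie apart in TAIR10.1 and have no other row. MIR408 and AT2G47020, nested on opposite strands, stood at 13.9, 10.5 and 13.2 CPM in Col-0 and at 26.1 and 31.8 CPM in 35S-RTL1-Myc (log2 1.21, SE 0.14, edgeR adjusted p = 2.59e-05). The row of MIR398b, whose mature sequences equal those of MIR398c, with AT5G14550 and AT5G14560 stood at 37.6, 35.6 and 41.9 CPM in Col-0 and at 30.1 and 41.1 CPM in 35S-RTL1-Myc, where the groups overlapped and the test did not pass.

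The 7 rows that fell include the row of MIR850 and MIR863 and AT4G13495, a non-coding RNA locus. It stood at 16.7, 16.4 and 19.3 CPM in Col-0 and at 2.57 and 4.53 CPM in 35S-RTL1-Myc, a fall of 2.29 on the log2 scale (SE 0.28, edgeR adjusted p = 3.86e-05). The row of AT4G03038 and MIR826a and AT4G03040 stood at 1.00, 1.13 and 1.12 CPM in Col-0 and at 0.109 and 0.170 CPM in 35S-RTL1-Myc (−2.91, SE 0.40, edgeR adjusted p = 9.82e-05), with 8 counts in the latter group. AT4G14810 and MIR780 (−1.53, SE 0.33), AT5G26146 and MIR156f and AT5G26150 (−1.35, SE 0.29), MIR156d and AT5G10946 (−0.96, SE 0.26) and AT3G23325 and MIR853 (−0.44, SE 0.11) fell as well. MIR844 and AT2G23348 (−1.09, SE 0.40) passed only at the threshold, with an edgeR adjusted p that rounds to 0.05. It stood at 0.507 and 0.783 CPM in 35S-RTL1-Myc.

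**Figure D4:**
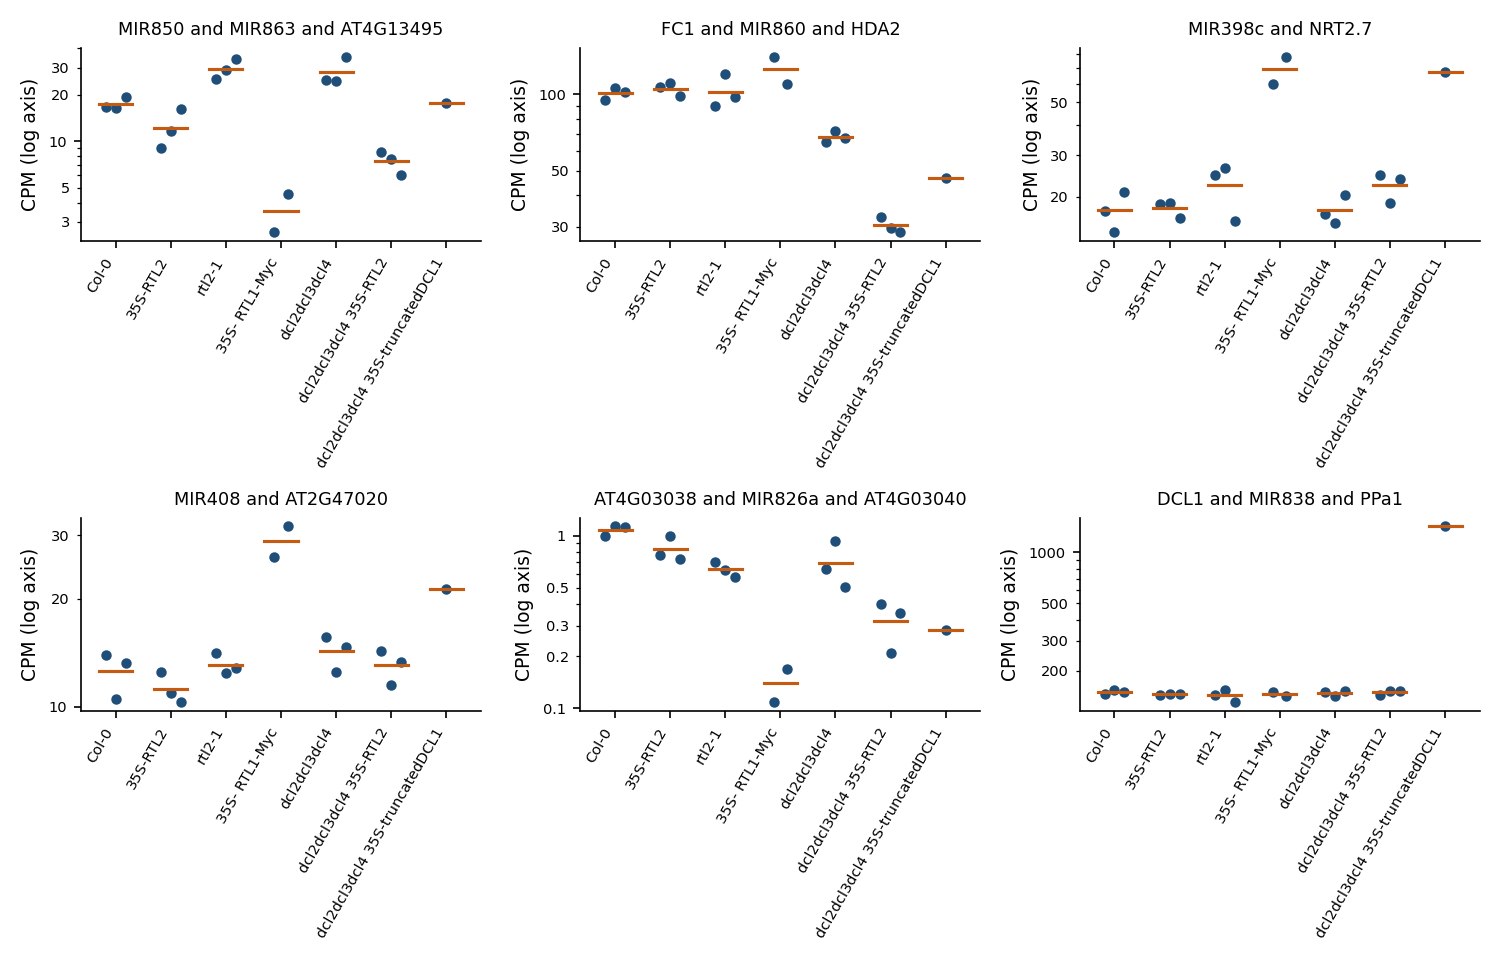
CPM on a log axis for 6 joined rows with a microRNA precursor, 1 point per library and a line at the group mean, over the 7 groups. MIR850 and MIR863 and AT4G13495 is lowest in 35S-RTL1-Myc (2.57 and 4.53 CPM) and next in dcl2dcl3dcl4 35S-RTL2 (6.05 to 8.57 CPM), and FC1 and MIR860 and HDA2 is lowest in dcl2dcl3dcl4 35S-RTL2.

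Rows with other kinds of non-coding gene moved in both directions. SPP2, a sucrose-phosphate phosphatase gene with the tRNA gene AT3G52345 nested on the opposite strand, had a mean of 16.7 CPM in Col-0 (SD 0.768, n = 3) and 44.2 CPM in 35S-RTL1-Myc (SD 1.43, n = 2), a rise of 1.40 on the log2 scale (SE 0.11, edgeR adjusted p = 6.29e-07). EXO70H7, an exocyst subunit gene, with the head-to-head AT5G59732 rose by 1.13 (SE 0.11), and AT3G19000 and AT3G19002, likewise head to head with a non-coding RNA, rose by 1.02 (SE 0.10). AT5G49130 and AT5G49138 fell by 1.71 (SE 0.32), from a mean of 77.3 CPM (SD 11.4, n = 3) to 23.6 CPM (SD 0.116, n = 2). CK1, a choline kinase gene, with the tRNA gene AT1G71700 fell by 0.55 (SE 0.10). All of these rows had an edgeR adjusted p of 0.000962 or lower.

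Pathway lists placed few genes in joined rows, and their calls are counts of rows, each beside the 29.5% of all rows called in 35S-RTL1-Myc. Both rows with a flavonoid gene rose: AT3G51238 and F3H, a flavanone hydroxylase gene, stood at 114 to 116 CPM in Col-0 and at 320 and 254 CPM in 35S-RTL1-Myc (1.32, SE 0.17, edgeR adjusted p = 5.72e-05). TT4, the chalcone synthase gene, with AT5G13940 stood at 457 to 522 CPM in Col-0 and at 1360 and 917 CPM in 35S-RTL1-Myc (1.21, SE 0.23, edgeR adjusted p = 0.00113). Of 2 heat shock rows, AT1G74300 and HSP101, a chaperone that dissolves protein aggregates, rose from 21.3 to 21.7 CPM in Col-0 to 40.5 to 42.9 CPM (0.96, SE 0.09), and the row of HSP17.4 did not pass. Of 4 rows with a microRNA target, SPL3 and AT2G33815 fell from 132 to 141 CPM in Col-0 to 87.6 to 92.9 CPM (−0.59, SE 0.11). SBE2.1 and GRF3 fell by 0.47 (SE 0.17, edgeR adjusted p = 0.0464), and without 35S-RTL1-Myc replicate 1 its change was −0.09 (edgeR adjusted p = 0.536). This call was also lost without any 1 Col-0 library (−0.45 to −0.49, edgeR adjusted p = 0.0749 to 0.103). It was lost with TMM on single-locus rows, no filter, the table number, the replicate number as a block and the compared groups alone as well. The edgeR adjusted p was then 0.0501 to 0.133. The row of FIB2, a nucleolar fibrillarin gene that hosts the small nucleolar RNA U60.2F, fell by 0.93 (SE 0.19, edgeR adjusted p = 0.00166), while that of FIB1 and U60.1F did not pass. The 3 rows of light-harvesting genes on the photosynthesis list had changes of −0.43, −0.33 and −0.39 (SE 0.20 to 0.21) and none passed. No gene of the list for cold, drought and abscisic acid lies in a joined row.

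Of the 49 RNA silencing genes listed, 8 lie in joined rows. In 35S-RTL1-Myc 1 of these rows was called, 12.5% beside 29.5% of all rows tested. AT1G05450 and SDE3, an RNA helicase gene of siRNA amplification, stood at 40.1, 51.1 and 51.8 CPM in Col-0 and at 72.1 and 85.2 CPM in 35S-RTL1-Myc, a rise of 0.72 on the log2 scale (SE 0.17, edgeR adjusted p = 0.00582). Without 35S-RTL1-Myc replicate 2 it missed the threshold (0.61, edgeR adjusted p = 0.0701). The rows of DCL1 (−0.04, SE 0.08), DCL2 (0.15, SE 0.09) and DCL3 (0.37, SE 0.17) did not pass, nor did those of RDR1, SHH1, TGH and TEX1, whose changes lay between 0.03 and 0.29.

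Both known natural antisense siRNA pairs that lie in joined rows failed to pass the test. SRO5 and ALDH12A1 (also called P5CDH) form the pair in which such siRNAs were described under salt stress, and the row stood at 111, 98.8 and 109 CPM in Col-0, 122 and 97.8 CPM in 35S-RTL1-Myc and 108, 105 and 105 CPM in dcl2dcl3dcl4. PPRL and GB2 (also called ATGB2) form the pair described under bacterial challenge, and the row stood at 121, 124 and 132 CPM in Col-0, 124 and 120 CPM in 35S-RTL1-Myc and 123, 123 and 124 CPM in dcl2dcl3dcl4. The groups overlapped in each case. In 35S-RTL1-Myc the log2 changes were 0.05 (SE 0.11) and −0.05 (SE 0.08), and in dcl2dcl3dcl4 they were 0.00 (SE 0.09) and −0.03 (SE 0.07). Since a joined row sums both strands, opposite changes within a pair would not show. Plants here were not stressed, as far as the labels say.

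The effect of losing DCL2, DCL3 and DCL4 is the question of dcl2dcl3dcl4 against Col-0. Rows with DCL2 and DCL3 themselves fell, and rows with the trans-acting siRNA precursor TAS1C, the S-locus pseudogene PSEUDOSRKA, the cell-death gene GRI and the brassinosteroid-response gene CES rose. In all, 47 of 1830 joined rows were called, 13 higher and 34 lower. That is 2.57% of joined rows, beside 4.56% of all rows tested and 4.75% of single-locus rows. The shares called higher were 0.71% of joined and 0.754% of all rows, and those called lower were 1.86% and 3.80%. The count depends on the fit: 247 joined rows were called when the model held these 2 groups alone, 82 by DESeq2 (4.32% of joined and 4.62% of single-locus rows), and 12 to 25 when any 1 of the 6 libraries was left out. With the number in the names of the deposited tables as a term, 10 were called, 5 higher and 5 lower. Only number 3 holds both groups, with 1 library each, so no test within a number was made.

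At like abundance, the median size of the log2 change was 0.104 for joined and 0.116 for single-locus rows at 10 to 100 CPM, 0.0870 and 0.101 above 100 CPM, and 0.195 and 0.249 at 1 to 10 CPM. Rows called lower made up 1.36% of joined and 2.75% of single-locus rows at 10 to 100 CPM. Below 1 CPM, 3 of 42 joined rows were called lower (7.14%) against 5.34% of single-locus rows. By overlap, and beside the 4.56% of all rows called, 6 of 162 opposite-strand nested rows were called (4 higher and 2 lower), 30 of 1265 tail-to-tail rows (8 higher and 22 lower), 1 of 94 head-to-head rows and 4 of 102 same-strand rows. Rows on opposite strands of any kind were called in 2.43% of 1521 cases and had a median log2 change of 0.033, the same median as over all joined rows, against 0.008 over all rows.

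The rows of the mutated genes DCL3 and DCL2 fell. DCL3 and AT3G43930, tail to tail, stood at 21.7, 20.1 and 19.1 CPM in Col-0 and at 3.75, 2.58 and 3.39 CPM in dcl2dcl3dcl4, a fall of 2.64 on the log2 scale (SE 0.18, edgeR adjusted p = 1.49e-06). DCL2 and AT3G03305, on the same strand, stood at 76.4, 69.4 and 63.9 CPM in Col-0 and at 42.5, 41.9 and 40.5 CPM in dcl2dcl3dcl4 (−0.75, SE 0.08, edgeR adjusted p = 0.000215). The groups did not overlap in either row, where 36.5% of all rows tested did not overlap. DCL4 is not in a joined row. The DCL1 row stood at 151, 143 and 152 CPM in dcl2dcl3dcl4 against 147, 155 and 150 CPM in Col-0. Of the 8 joined rows with a silencing gene, the DCL2 and DCL3 rows were the called ones, 25.0% beside 4.56% of all rows. Both hold a mutated gene. AT1G05450 and SDE3 stood at 57.7, 73.4 and 75.9 CPM in dcl2dcl3dcl4 against 40.1, 51.1 and 51.8 CPM in Col-0 without passing (0.53, SE 0.16, edgeR adjusted p = 0.0712).

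The rises included the row of a trans-acting siRNA precursor. AT2G39670 and TAS1C, whose transcript is cut by DCL4 into trans-acting siRNAs after a microRNA has cleaved it, stood at 79.9, 68.2 and 79.3 CPM in Col-0 and at 118, 131 and 146 CPM in dcl2dcl3dcl4. The row rose by 0.80 on the log2 scale (SE 0.15, edgeR adjusted p = 0.00736). The row with a pentatricopeptide repeat gene that trans-acting siRNAs target, PPR and UGE1, stood at 158 to 186 CPM in Col-0 and at 157 to 182 CPM in dcl2dcl3dcl4 (−0.01, SE 0.11), although in 35S-RTL1-Myc it fell by 0.80 (SE 0.13, edgeR adjusted p = 0.000312) to 100 and 95.6 CPM. AT4G21366 and PSEUDOSRKA, the pseudogene of a self-incompatibility receptor, stood at 5.73, 6.29 and 5.13 CPM in Col-0 and at 12.5, 14.2 and 15.2 CPM in dcl2dcl3dcl4 (1.29, SE 0.18, edgeR adjusted p = 0.00195). Of 74 tested rows with a pseudogene, 4 were called, 3 higher and 1 lower (5.41%), a share near the 4.56% of all rows. AT3G32920 and AT3G32925, on the same strand, had a mean of 2.93 CPM in Col-0 (SD 0.286, n = 3) and 5.76 CPM in dcl2dcl3dcl4 (SD 1.24, n = 3), a rise of 0.98 (SE 0.23, edgeR adjusted p = 0.0246). That call was lost without any 1 of the Col-0 libraries and without dcl2dcl3dcl4 replicate 1 or 3 (edgeR adjusted p = 0.0581 to 0.106).

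Further rises were found in rows with GRI, CES and a tRNA gene. AT1G53120 and GRI stood at 29.7, 33.2 and 28.4 CPM in Col-0 and at 47.0, 50.0 and 46.3 CPM in dcl2dcl3dcl4 (0.65, SE 0.09, edgeR adjusted p = 0.00208). AT1G25320 and CES stood at 38.0, 44.2 and 38.3 CPM in Col-0 and at 62.5, 58.2 and 64.9 CPM in dcl2dcl3dcl4 (0.62, SE 0.10, edgeR adjusted p = 0.00289). AT1G28710 and AT1G28720, a protein-coding gene and a tRNA gene nested on opposite strands, stood at 33.8, 39.1 and 31.9 CPM in Col-0 and at 55.8, 55.3 and 56.8 CPM in dcl2dcl3dcl4 (0.68, SE 0.11, edgeR adjusted p = 0.00289). AT3G26470 and AT3G26480 rose by 0.92 (SE 0.25, edgeR adjusted p = 0.0473), a call lost when any 1 library was left out (edgeR adjusted p = 0.0558 to 0.224). Rows with MES10 (0.67, SE 0.16), ARAD2 (0.43, SE 0.10), KELP (0.40, SE 0.08) and APC6 (0.35, SE 0.09) also rose. The MES10 and ARAD2 rows lost their call when any 1 library was left out (edgeR adjusted p = 0.0642 to 0.112). The APC6 row lost its call without any 1 Col-0 library and without dcl2dcl3dcl4 replicate 1 or 3. The KELP row lost its call without Col-0 replicate 3 or dcl2dcl3dcl4 replicate 3. Each of these rows also lost its call with the table number as a term.

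Of the falls other than the DCL rows, AT1G63055 and AT1G63057 was the largest, from 7.27, 4.60 and 1.29 CPM in Col-0 to 0.0797, 0.0890 and 0 CPM in dcl2dcl3dcl4. It held 4 counts over the 3 dcl2dcl3dcl4 libraries against 326 in Col-0, with a fitted log2 change of −6.31 (SE 1.17). AT5G47350 and AT5G47360 stood at 53.5, 38.6 and 17.2 CPM in Col-0, a wide spread, and at 5.66, 6.28 and 4.83 CPM in dcl2dcl3dcl4 (−2.71, SE 0.63, edgeR adjusted p = 0.025). This row missed the threshold without Col-0 replicate 1 or 2 and without any 1 of the dcl2dcl3dcl4 libraries. The log2 change was then −2.34 to −2.81 (edgeR adjusted p = 0.0646 to 0.105). With the table number as a term it was also missed (edgeR adjusted p = 0.103). GLP8, a germin-like gene, with the nested AT3G05932 stood at 111, 115 and 144 CPM in Col-0 and at 52.1, 52.2 and 67.8 CPM in dcl2dcl3dcl4 (−1.10, SE 0.20, edgeR adjusted p = 0.00677). AT1G11770 and AT1G11780 stood at 66.8, 62.0 and 68.4 CPM in Col-0 and at 33.3, 30.3 and 39.8 CPM in dcl2dcl3dcl4 (−0.93, SE 0.16, edgeR adjusted p = 0.00572). With the table number as a term, the GLP8 and AT1G11770 rows both lost their call (edgeR adjusted p = 0.105 and 0.0855). The row of FLA3, an arabinogalactan protein gene, with AT2G24440 fell by 0.87 (SE 0.19), and that of PTR5, a peptide transporter gene, with AT5G01175 by 0.90 (SE 0.23). The PTR5 row lost its call when any 1 library was left out (edgeR adjusted p = 0.0705 to 0.14), and the FLA3 row without Col-0 replicate 1 or 3 or dcl2dcl3dcl4 replicate 1 or 2 (edgeR adjusted p = 0.0635 to 0.106).

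Of the 29 joined rows singled out in dcl2dcl3dcl4, 8 held their call in all 14 alternative settings, of which the minimum fold asks for a fitted fold of at least 1.5. These are the rows of DCL2, DCL3, TAS1C, PSEUDOSRKA, GRI, CES, AT1G28710 and AT1G63055. In 35S-RTL1-Myc, 37 of 48 held theirs in all 13 settings. The microRNA precursor rows showed 1 call in dcl2dcl3dcl4 among 26 (3.85%), a fall of 0.57 (SE 0.11, edgeR adjusted p = 0.00987) in FC1 and MIR860 and HDA2, and without dcl2dcl3dcl4 replicate 1 this row stood at −0.54 (edgeR adjusted p = 0.0600).

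Both comparisons with Col-0 use the same 3 control libraries, so their values are set side by side without a test. AT2G39670 and TAS1C changed by 0.59 (SE 0.16) in 35S-RTL1-Myc and 0.80 (SE 0.15) in dcl2dcl3dcl4, and AT1G53120 and GRI by 0.71 (SE 0.10) and 0.65 (SE 0.09). AT1G25320 and CES changed by 1.10 (SE 0.11) and 0.62 (SE 0.10), and GLP8 and AT3G05932 by −1.22 (SE 0.23) and −1.10 (SE 0.20). AT4G21366 and PSEUDOSRKA had values of 0.43 (SE 0.20) and 1.29 (SE 0.18), of which the second passed. DCL3 and AT3G43930 had values of 0.37 (SE 0.17) and −2.64 (SE 0.18), and DCL2 and AT3G03305 of 0.15 (SE 0.09) and −0.75 (SE 0.08). The TAS1C row lost its call in 35S-RTL1-Myc without 35S-RTL1-Myc replicate 2 (0.48, edgeR adjusted p = 0.118) and without Col-0 replicate 2 (0.52, edgeR adjusted p = 0.0527).

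**Figure D5:**
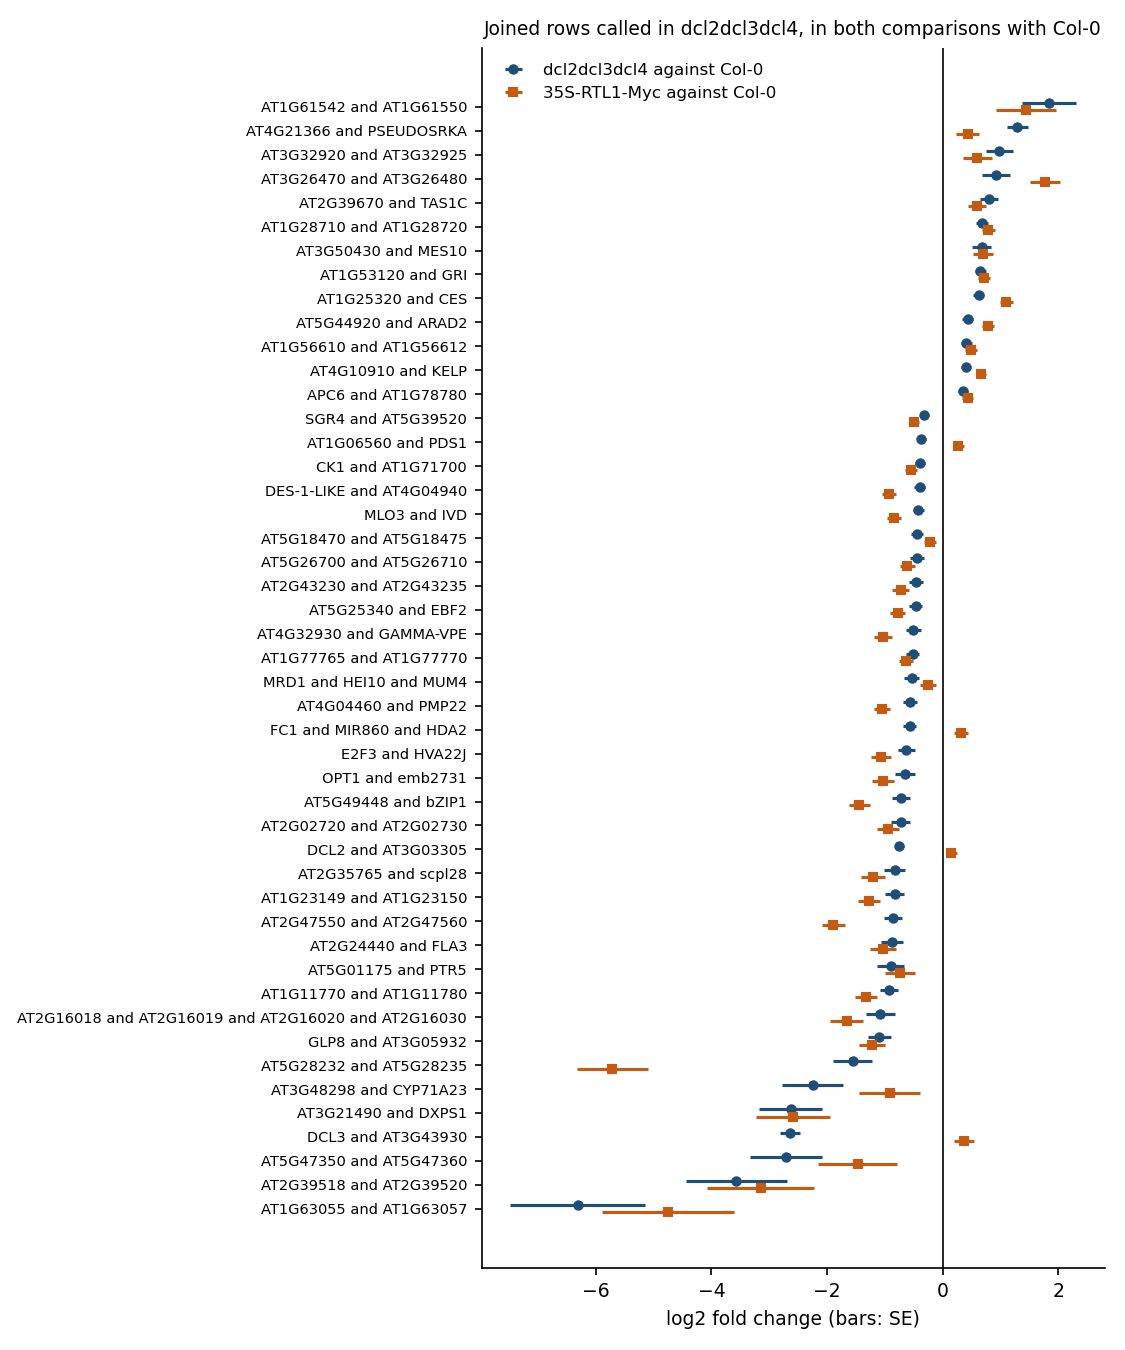
Log2 fold change with its SE for the 47 joined rows called in dcl2dcl3dcl4 (blue circles), with the value of the same row in 35S-RTL1-Myc (orange squares), both against the same 3 Col-0 libraries. The DCL3 row stands at −2.64 in dcl2dcl3dcl4 and 0.37 in 35S-RTL1-Myc, and the value of AT5G28232 and AT5G28235 in 35S-RTL1-Myc rests on 1 count there.

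In the dcl2dcl3dcl4 background, the question was what RTL2 overexpression changes. Of the joined rows, 2 were called, both lower and both with microRNA precursors, which is 0.109% beside 0.0609% of all rows tested called (13 of 21343) and 0.0422% called lower. FC1, a ferrochelatase gene of haem synthesis, MIR860 and HDA2, a histone deacetylase gene, share a row that stood at 65.1, 71.7 and 67.0 CPM in dcl2dcl3dcl4 and at 32.9, 29.8 and 28.6 CPM in dcl2dcl3dcl4 35S-RTL2. No library overlapped, where 14.7% of all rows tested did not, and FC1 and MIR860 and HDA2 fell by 1.16 on the log2 scale (SE 0.11, edgeR adjusted p = 0.000534). MIR850 and MIR863 and AT4G13495 stood at 25.1, 24.4 and 35.4 CPM in dcl2dcl3dcl4 and at 8.57, 7.63 and 6.05 CPM in dcl2dcl3dcl4 35S-RTL2 (−1.93, SE 0.23, edgeR adjusted p = 0.00254). Both calls held when any 1 library was left out.

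The same overexpression was measured in plants with wild-type DCL genes. In 35S-RTL2 against Col-0, 0 of 1830 joined rows were called by edgeR's quasi-likelihood test and 0 by DESeq2, beside 0.00937% of all rows, and 91 joined rows had an unadjusted p below 0.05. FC1 and MIR860 and HDA2 stood at 107, 111 and 98.1 CPM in 35S-RTL2 against 94.6, 106 and 102 CPM in Col-0, a log2 change of 0.06 (SE 0.11). MIR850 and MIR863 and AT4G13495 stood at 8.99, 11.7 and 16.1 CPM in 35S-RTL2, all below the 16.4 to 19.3 CPM of Col-0, where 10.7% of all rows tested did not overlap, a change of −0.51 (SE 0.22) that did not pass. The difference between the RTL2 effects in the 2 backgrounds was itself tested: it was −1.22 (SE 0.16, edgeR adjusted p = 0.0282) for the FC1 row and −1.42 (SE 0.32, edgeR adjusted p = 0.792) for the MIR850 row. This test was not repeated with a library left out or under the other settings. The rows with the smallest p in 35S-RTL2 were AT1G06650 and JASON (−0.27, SE 0.07), AT1G09460 and AT1G09470 (0.24, SE 0.07) and the mitochondrial ATMG00080 and ATMG00090 (1.07, SE 0.31), each with an edgeR adjusted p of 0.899.

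In the mutant rtl2-1, 1 joined row was called against Col-0 (0.0546% beside 0.122% of all rows). AT2G40008 and AT2G40010, which encodes a ribosomal protein, stood at 30.8, 32.6 and 34.8 CPM in rtl2-1 and at 17.4, 17.0 and 19.4 CPM in Col-0, a rise of 0.87 on the log2 scale (SE 0.14, edgeR adjusted p = 0.0298). The groups did not overlap, where 13.3% of all rows tested did not. Leaving out any 1 Col-0 library gave changes of 0.83 to 0.92 and edgeR adjusted p of 0.112 to 0.176. The call was also lost without rtl2-1 replicate 2 or 3 (edgeR adjusted p = 0.0712 and 0.0608). It was lost as well with the compared groups alone (edgeR adjusted p = 0.0812) and with the table number as a term (edgeR adjusted p = 0.0785). MIR850 and MIR863 and AT4G13495 stood at 25.3, 28.9 and 34.0 CPM in rtl2-1 without passing.

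The single dcl2dcl3dcl4 35S-truncatedDCL1 library was compared with dcl2dcl3dcl4, with its spread taken from the replicated groups and no replicate check. Of the joined rows 102 were called, 82 higher and 20 lower, which is 5.57% beside 5.65% of all rows tested. The shares of all rows were 4.70% called higher and 0.946% called lower. The row of DCL1 and MIR838 and PPa1, an inorganic pyrophosphatase gene, stood at 1420 CPM against 151, 143 and 152 CPM in dcl2dcl3dcl4 (3.25, SE 0.09, edgeR adjusted p = 1.34e-11). The library is labelled with a 35S-driven truncated DCL1 gene, and reads of that gene cannot be told apart from those of the row's own loci. VAMP725 and RLP23, a receptor-like protein gene of pathogen recognition, stood at 34.8 CPM against 3.03 to 4.82 CPM (3.21, SE 0.36), and AT5G39670 and EMB2744 at 23.9 CPM against 3.29 to 5.06 CPM (2.60, SE 0.30). The lower row of NIC2 stood at 49.8 CPM against 193, 240 and 218 CPM (−2.12, SE 0.55, edgeR adjusted p = 0.0337). It missed the threshold without any of the dcl2dcl3dcl4 libraries, with edgeR adjusted p of 0.0517 to 0.0769. Rows with CT-BMY, a plastid beta-amylase gene (−0.89, SE 0.24), ACD32.1 (−1.08, SE 0.29), the precursor MIR835 (−1.01, SE 0.27) and DCL3 (−1.03, SE 0.28) were also called lower. The CT-BMY, ACD32.1 and MIR835 rows lost their call when any 1 of the dcl2dcl3dcl4 libraries was left out. The DCL3 row lost its call without dcl2dcl3dcl4 replicate 1 or 3.

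Some rows that rose in 35S-RTL1-Myc were also called higher in the truncated DCL1 library, against a different reference group. MIR398c and NRT2.7 stood at 67.2 CPM against 15.5 to 20.4 CPM in dcl2dcl3dcl4 (1.93, SE 0.24, edgeR adjusted p = 0.000179). AT5G15845 and COL1 stood at 31.2 CPM against 4.90 to 5.66 CPM (2.55, SE 0.42), and cPT4 and cPT5 at 11.7 CPM against 1.32 to 1.82 CPM (2.97, SE 0.35). Of the 102 joined rows called there, 66 were also called in 35S-RTL1-Myc (64.7% of the 102 and 13.3% of the 497), 64 of them in the same direction. Among single-locus rows the share was 60.1% of 1103, with 607 of 663 in the same direction.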

How the data were processed

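Messenger RNA libraries were grouped by their titles. The authors deposited whole read counts per row, with TAIR9 named in the submitters' processing notes. No source used here gives the aligner, the counter or its strand setting.

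Loci were matched by identifier to RefSeq on TAIR10.1 for names, gene types, orientation and microRNA sequences (3816 of 3913 loci). The builds differ, so no coordinates are printed.

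Rows with few counts were removed (filterByExpr). The 21343 left were scaled by TMM and fitted over all libraries with 1 mean per group in edgeR 4.0.16 (glmQLFit and glmQLFTest, R 4.3.3). Calls used a Benjamini-Hochberg adjusted p below 0.05, counted over every row tested. Levels are TMM-scaled CPM, and log2 changes carry standard errors (SE). The biological coefficient of variation was 15.1%. The test was tried on simulated data. Alternatives were DESeq2 1.42.0, other scaling, no filter, a minimum fold of 1.5, the compared groups alone, a block or batch term, and each library left out.

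Named rows are the 5 with most counts, and up to 12 higher and 12 lower for 35S-RTL1-Myc and dcl2dcl3dcl4, by largest change, where the mean reached 1 CPM and the groups did not overlap. In other comparisons they are every call up to 10, otherwise up to 5 each way, and with none called the 3 smallest p. Up to 4 called per gene class and list, and the DCL and natural antisense rows, were added. The rows of MIR398b, MIR844, MIR853, MIR780, MIR156d, MIR156f, FIB1, HSP17.4, RDR1, SHH1, TGH and TEX1 are outside this rule and were named after their values were seen, to complete their groups. The members, lists and rules were chosen with earlier results of these data known. Of 10 lists with 182 genes, 27 rows were joined.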

Additional observations from a re-analysis of the deposited data

Results flagged for a closer look

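The row of FC1 and MIR860 and HDA2 responded differently to 35S-RTL2 in the 2 backgrounds, by a test of the difference itself. The RTL2 effect in dcl2dcl3dcl4 minus that in Col-0 was −1.22 on the log2 scale (SE 0.16, edgeR adjusted p = 0.0282), from −1.16 in dcl2dcl3dcl4 and 0.06 in Col-0. It was 1 of 2 rows called in this contrast among 21343 (0.00937%), and the single joined row. The levels were 32.9, 29.8 and 28.6 CPM in dcl2dcl3dcl4 35S-RTL2, 65.1, 71.7 and 67.0 CPM in dcl2dcl3dcl4, 107, 111 and 98.1 CPM in 35S-RTL2, and 94.6, 106 and 102 CPM in Col-0. In the single dcl2dcl3dcl4 35S-truncatedDCL1 library the row stood at 46.9 CPM, a change of −0.54 (SE 0.16) against dcl2dcl3dcl4 that did not pass. The test of the difference was not repeated with a library left out or under the other settings.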

How the results depend on the processing

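Counts of joined calls kept within 1.5 times of the reported ones under RLE scaling, TMM scaling on single-locus rows and no filter, in all 6 comparisons. For 35S-RTL1-Myc, 234 were called with the minimum fold and 314 to 421 with 1 library left out. For dcl2dcl3dcl4, the counts were 29 with the minimum fold, 82 by DESeq2, 247 with the compared groups alone, 10 with the table number as a term and 12 to 25 with 1 library left out. For rtl2-1 they were 6 by DESeq2, 0 with the compared groups alone, 0 with the table number and 0 to 4 with 1 library left out. DESeq2 called 6 for dcl2dcl3dcl4 35S-RTL2. For truncated DCL1 the count was 266 with the compared groups alone and 59 to 75 with 1 dcl2dcl3dcl4 library left out. The cause of these differences was not tested. Rows near 0 that were never called changed sign. In 35S-RTL1-Myc, DCL1 and MIR838 and PPa1 ran from −0.08 to 0.01 and SRO5 and ALDH12A1 from −0.12 to 0.22 with 1 library left out. In dcl2dcl3dcl4, the DCL1 row was 0.00 without the filter, 0.01 with the table number and −0.04 to 0.00 with 1 library left out. The SRO5 row was there 0.01 with single-locus TMM, 0.01 without the filter, 0.00 with the table number and −0.05 to 0.02 with 1 library left out. With the replicate number as a block, 568, 60, 0, 1 and 2 joined rows were called in 35S-RTL1-Myc, dcl2dcl3dcl4, 35S-RTL2, rtl2-1 and dcl2dcl3dcl4 35S-RTL2, and the single truncated DCL1 library allowed no block. The replicate numbers were not taken to pair the samples. Same-numbered deviations from Col-0 and the other group correlated at 0.193 and −0.164 for 35S-RTL1-Myc and at 0.253, 0.0975 and 0.187 for dcl2dcl3dcl4. They did so at 0.278, 0.0494 and 0.220 for 35S-RTL2 and at 0.437, 0.0259 and 0.296 for rtl2-1. Between dcl2dcl3dcl4 35S-RTL2 and dcl2dcl3dcl4 the values were −0.302, 0.00917 and −0.0255. Each dcl2dcl3dcl4 library correlated best with its own number in Col-0. So did replicates 1 and 3 of 35S-RTL2 and of rtl2-1, a hint from the data only. The depth limits rows such as AT5G28232 and AT5G28235, with 1 count in the 35S-RTL1-Myc libraries.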
